A study of Setaria viridis with 26 samples.

Results

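Sevir.2G248500 and Sevir.4G246900 are 2 of the 25298 genes listed for a co-expression network of *Setaria viridis* inflorescence primordia, and both lie in its magenta module of 1260 listed genes. They were taken from the node list by locus, and the pair was chosen by the high weight of the edge between its genes in this same network. That weight is therefore given as a description only. The first gene encodes a basic helix-loop-helix (bHLH) transcription factor and the second a GATA zinc-finger transcription factor, and they are called the bHLH gene and the GATA gene here. The node list holds 1 transcript for each.

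The study examined *SvFul2*, a MADS-box gene, in *S. viridis*, a small panicoid grass used as a model for C4 cereals. RNA-seq libraries were made from pools of hand-dissected inflorescence primordia of *ful2* mutants at 9 to 10, 15, and 21 days after sowing (DAS) and of wild-type plants at 8 to 9, 10 to 11, and 17 DAS, all in the A10.1 background, with 4 samples for each genotype and stage. The network rests on wild-type samples alone. Of the 12 collected here, 2 were left out by the authors, and libraries of A10.1 primordia from a previous study were joined to the rest. No *ful2* sample entered it, so none of the values below compares the mutant with the wild type. An edge weight is the topological overlap of a pair of genes, which rises as their expression profiles, and the sets of genes they vary with, become more alike. Pairs lighter than about 0.02 are left off the list. A weight is a single figure for the whole set of libraries, with no error from replicates, and so no test was run.

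bHLH proteins bind DNA as dimers through a basic region, often with another member of the family, and members act in light signalling, hormone signalling, and the development of meristems and organs. Plant GATA factors bind DNA through a single zinc finger. In Arabidopsis, the GATA factor GNC (GATA21) promotes greening and chloroplast formation and delays flowering. 

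The annotation of the GATA gene is richer than that of the bHLH gene. The GATA gene carries a GATA zinc-finger domain and has Arabidopsis GNC (AT5G56860) as its reciprocal best hit, from which it takes most of its 19 Gene Ontology (GO) terms. These include response to light stimulus, regulation of chlorophyll biosynthesis, circadian rhythm, gibberellin signalling, leaf morphogenesis, and negative regulation of flower development. The bHLH gene carries a helix-loop-helix domain and 8 terms, among them protein dimerization, regulation of transcription, and a nuclear location. Its other terms include plastid, mitochondrial, and membrane locations and an oxidation-reduction process. No Arabidopsis gene is named as the source of any of its terms. All of these terms are predictions made from sequence.

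The bHLH gene was among the better connected genes of magenta, and the GATA gene was somewhat less so. The bHLH gene had 4936 listed edges, which led to 19.5% of the other network genes, with weights up to 0.158 and a median of 0.0407. The GATA gene had 4058 edges, to 16.0% of the other network genes, with weights up to 0.157 and a median of 0.0377. Magenta genes had a median of 2719.5 edges, and the genes of the whole network had a median of 3069. Within magenta, the bHLH gene was linked to 1204 genes, which are 95.6% of the others, and the GATA gene to 1144, or 90.9%, whereas the median magenta gene was linked to 744.5. By the sum of their weights to magenta genes, the bHLH gene (80.5) ranked 85th and the GATA gene (67.0) ranked 200th of 1260, above a module median of 34.2. The highest sum in the module was 120. Their edges were heavier inside the module than outside it. The median weight of the bHLH gene was 0.0642 for magenta partners and 0.0358 for partners in other modules, and that of the GATA gene was 0.0544 and 0.0332. Magenta held 24.4% of the edges of the bHLH gene and 28.2% of those of the GATA gene, so that most partners of both genes lie in other modules.

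The edge between the genes had a weight of 0.123. For the bHLH gene it was the 38th heaviest of all its edges, with 99.3% of them lighter, and for the GATA gene it was the 20th heaviest, with 99.5% lighter. Among the other edges within magenta, 97.4% were lighter and 12128 of 470297 were heavier. The median magenta edge was 0.0442 and the heaviest was 0.228. Both genes had many heavy edges, and their own edge stood lower when this was allowed for. When every magenta edge was divided by the geometric mean of the summed magenta weights of its genes, 90.5% were lighter. The pair's edge is therefore high on the lists of both genes, but neither gene is the heaviest partner of the other.

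The heaviest partners were largely the same for both genes. Of the 15 heaviest partners of each, 11 were common to both, and of the 100 heaviest, 62 of 99 were common when the genes themselves were left out. Topological overlap counts neighbours held in common, so that a heavy edge and a shared neighbourhood go together by construction.

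**Figure D1:**
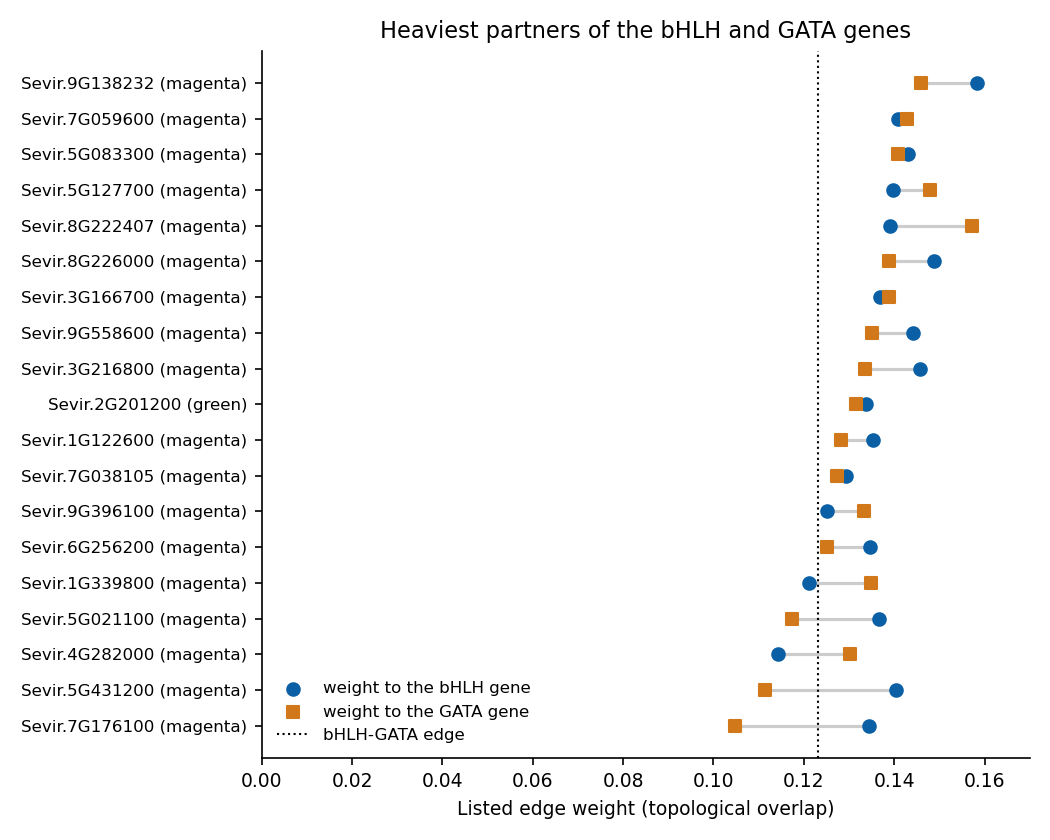
Edge weights of the 19 genes that are among the 15 heaviest partners of the bHLH gene or of the GATA gene, with circles for the bHLH gene, squares for the GATA gene, and a dotted line at the weight of the edge between them (0.123). The top partner of the bHLH gene, Sevir.9G138232, reached 0.158, and the top partner of the GATA gene, Sevir.8G222407, reached 0.157.

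Some of the heaviest partners are regulatory genes. The heaviest partner of the bHLH gene was Sevir.9G138232, which has the homeobox domain of the KNOX and BELL class and had a weight of 0.158 to the bHLH gene and 0.146 to the GATA gene. Some KNOX and BELL proteins are known for keeping meristem cells undifferentiated, but the domain alone does not show this role for Sevir.9G138232. Sevir.9G558600, annotated with regulation of transcription, had weights of 0.144 to the bHLH gene and 0.135 to the GATA gene. Sevir.9G396100, a heat shock factor whose best hit is Arabidopsis HSFB4 (SCHIZORIZA), had weights of 0.125 to the bHLH gene and 0.133 to the GATA gene. In Arabidopsis, SCHIZORIZA directs asymmetric divisions of root stem cells. The leucine-rich repeat receptor kinase Sevir.7G038105 had weights of 0.129 to the bHLH gene and 0.127 to the GATA gene.

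Other heavy partners encode enzymes, which are given singly, as no list of such enzymes was counted. The heaviest partner of the GATA gene was the laccase gene Sevir.8G222407, with weights of 0.139 to the bHLH gene and 0.157 to the GATA gene. Laccases are copper oxidases that polymerize lignin monomers. Sevir.4G282000, with a multicopper oxidase domain like that of laccases, had a weight of 0.114 to the bHLH gene and 0.1301 to the GATA gene. Sevir.5G021100, a pectin methylesterase, had weights of 0.137 to the bHLH gene and 0.117 to the GATA gene. Pectin methylesterases change the stiffness of the wall by removing methyl groups from pectin. The cytochrome P450 gene Sevir.5G083300 was the fifth heaviest partner of both, at 0.143 for the bHLH gene and 0.141 for the GATA gene. The inositol phosphatase gene Sevir.5G127700 had weights of 0.140 to the bHLH gene and 0.148 to the GATA gene, and the acyltransferase gene Sevir.8G226000, of a wax ester synthase type, had weights of 0.149 to the bHLH gene and 0.139 to the GATA gene.

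Some heavy partners encode plastid proteins. Sevir.1G122600, whose best hit is tocopherol cyclase (VTE1) of vitamin E synthesis, had weights of 0.135 to the bHLH gene and 0.128 to the GATA gene. Sevir.6G256200, a plastid copper/zinc superoxide dismutase, had weights of 0.135 to the bHLH gene and 0.125 to the GATA gene. Sevir.1G339800, a plastid inorganic pyrophosphatase, had weights of 0.121 to the bHLH gene and 0.135 to the GATA gene. Sevir.2G201200 was the only gene outside magenta among the 19 and lies in green. Its best hit in Arabidopsis is AT5G23040, a chaperone-like protein of the enzyme that reduces protochlorophyllide in chlorophyll synthesis. It had weights of 0.134 to the bHLH gene and 0.132 to the GATA gene.

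Of all partners, 3959 were linked to both genes. These were 80.2% of the partners of the bHLH gene and 97.6% of those of the GATA gene, leaving the other gene out of each list, and 78.7% of the union. The partner list of the GATA gene thus lay almost entirely within that of the bHLH gene. Partners of only the bHLH gene numbered 976 and reached 0.0455, and 974 of them were below 0.04. Partners of only the GATA gene numbered 98 and reached 0.0296. Their median weights were 0.0242 for partners of only the bHLH gene and 0.0220 for partners of only the GATA gene. An unlisted weight can lie just under 0.02, so that an unshared partner listed near 0.02 is not shown to differ in weight between the genes. By the overlap of the union, the GATA gene was 28th among the 1259 other magenta genes in likeness to the bHLH gene, and the bHLH gene was 16th in likeness to the GATA gene. The median overlap with other magenta genes was 39.5% for the bHLH gene and 37.8% for the GATA gene. The gene most like the bHLH gene was Sevir.6G101400 (87.2%), whose best hit is the plastid thioredoxin z, and the gene most like the GATA gene was Sevir.3G408300 (88.0%).

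The weights of both genes followed each other over the shared partners (Pearson's r = 0.928, Spearman's rho = 0.906, n = 3959 genes). These genes come from the same samples and follow each other in large groups, so the correlation is a description. The weight to the bHLH gene was the larger for 3314 shared partners (83.7%). The median weight over shared partners was 0.0476 for the bHLH gene and 0.0383 for the GATA gene. This lead of the bHLH gene was not the same in all modules. The weight to the bHLH gene was the larger for 99.4% of shared partners in pink, 99.4% in blue, 93.9% in green, and 86.7% in magenta, but for 46.4% in red, 31.6% in darkred, and 14.0% in orange. The GATA gene thus had the heavier edge to most shared partners in red, darkred, and orange, and also to 12 of the 15 in lightcyan, while yellow was even, with 4 of 8. In red and darkred the medians of both genes were close, at 0.0384 for the bHLH gene and 0.0386 for the GATA gene in red and at 0.0376 for the bHLH gene and 0.0379 for the GATA gene in darkred.

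**Figure D2:**
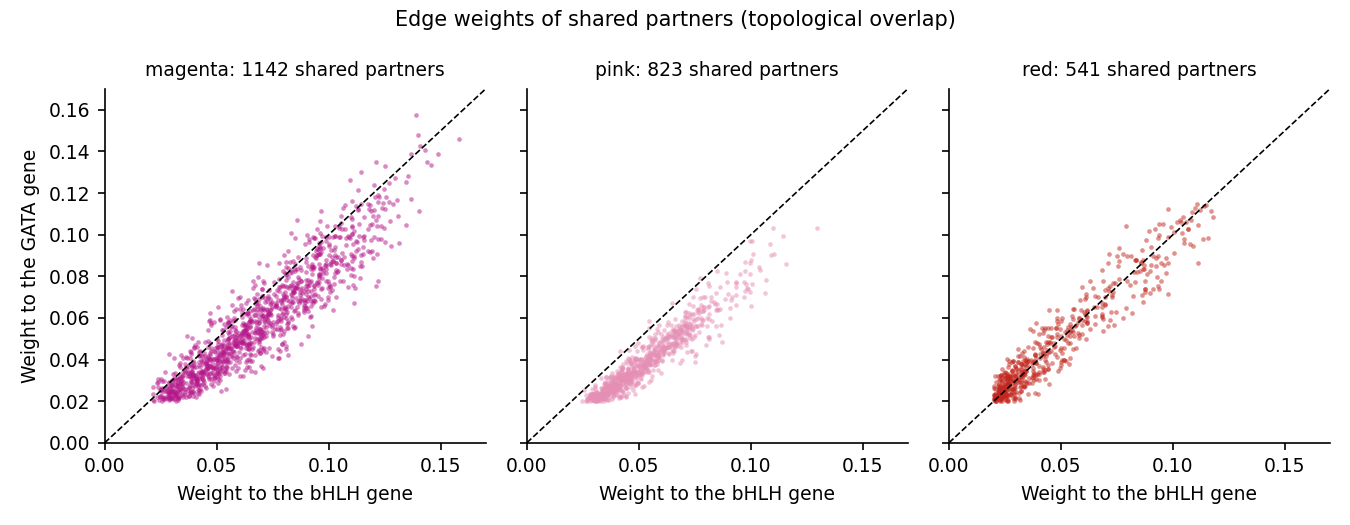
Edge weight to the GATA gene (vertical) against edge weight to the bHLH gene (horizontal) for shared partners in magenta, pink, and red, each point a gene, with a dashed line where both weights are equal. The bHLH gene had the larger weight for 99.4% of the 823 genes in pink and for 46.4% of the 541 in red.

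Both genes reached beyond magenta into the same modules. The bHLH gene was linked to 81.1% of the pink genes and the GATA gene to 62.7%, against 49.1% for the median magenta gene. In red, the bHLH gene was linked to 34.8% of the genes and the GATA gene to 35.8%, against 7.34% for the median magenta gene. Only 24 magenta genes reached a larger share of red than the bHLH gene, and 18 reached a larger share than the GATA gene. In salmon the shares were 31.7% for the bHLH gene and 26.7% for the GATA gene, against 3.33%. In the small module orange they were 63.4% for the bHLH gene and 69.5% for the GATA gene, against 9.76%. Among the 1260 magenta genes, the bHLH gene ranked 87th in salmon, 126th in orange, and 236th in pink by this share. The GATA gene ranked 115th, 100th, and 439th. *SvFul4* reached more than both, with 38.7% of salmon, 90.2% of orange, and 91.9% of pink. In blue, the bHLH gene reached 22.1% and the GATA gene 11.8%, on either side of the median magenta gene at 16.1%. Brown, the module of *SvFul2*, held 5 partners of the bHLH gene and 5 of the GATA gene among 2411 genes. In a separate directed network, the paper predicts *SvMads51* and *SvFul2* as direct targets of this bHLH factor. That network was not read here, and its regulatory scores are another measure than topological overlap. Turquoise, cyan, royalblue, and darkorange held no partner of either gene. In a signed network, genes with opposite profiles get low weights in the same way as unrelated genes.

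**Figure D3:**
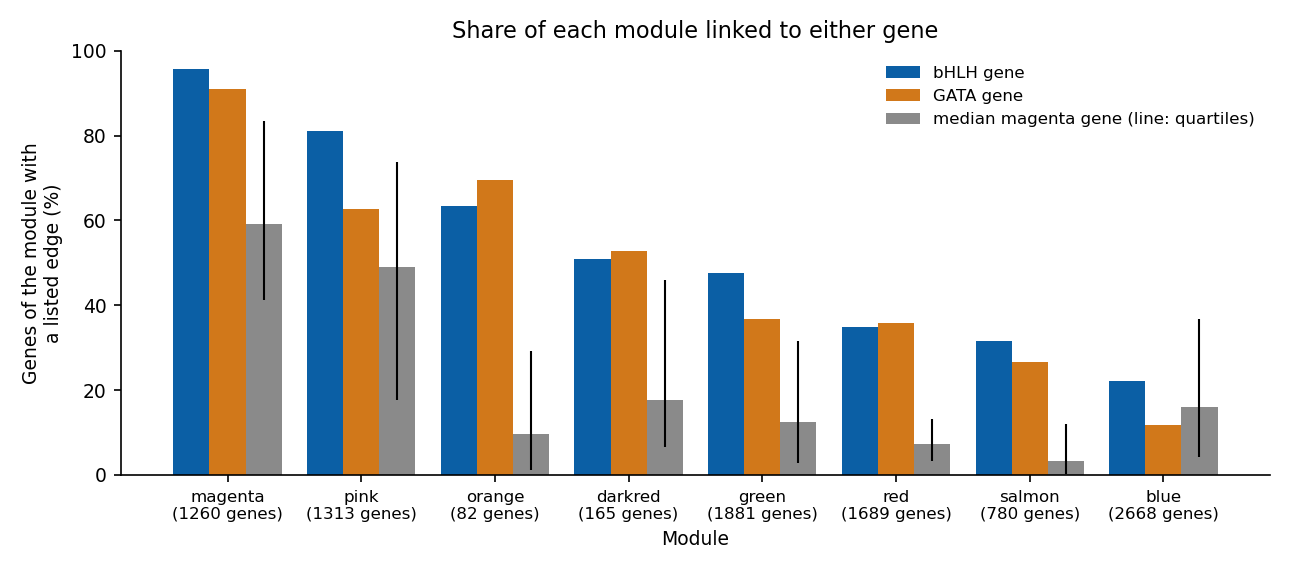
Share of the genes of 8 modules with a listed edge to the bHLH gene, to the GATA gene, and to the median magenta gene, with lines from the lower to the upper quartile over magenta genes. In red the bHLH and GATA genes (34.8% and 35.8%) lie above the quartile range of magenta genes, and in blue (22.1% and 11.8%) both lie within it.

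Partners of only the bHLH gene numbered 242 in pink (18.4% of its genes), 212 in green (11.3%), and 275 in blue (10.3%). Of the 98 partners of only the GATA gene, 64 were in red (3.79% of its genes), 8 in darkred (4.85%), and 7 in orange (8.54%). Nearly all of these edges were weak.

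Among 23 other genes that the study names, 8 (34.8%) were linked to both the bHLH gene and the GATA gene and 15 to neither, against 19.5% and 16.0% of all network genes. All 5 of the magenta genes in this list were linked, as were most magenta genes. Outside magenta, 3 of 18 (16.7%) were linked to each, a share near that over all genes. *SvYab15*, a YABBY gene of organ polarity, had weights of 0.115 to the bHLH gene and 0.0907 to the GATA gene. *SvSid1*, an AP2-like gene of spikelet determinacy, had weights of 0.115 to the bHLH gene and 0.0851 to the GATA gene. *SvIds1*, its AP2-like relative, had weights of 0.0709 to the bHLH gene and 0.0358 to the GATA gene. For these 3 genes the bHLH gene had the heavier edge. *SvFul4*, an AP1/FUL-like MADS-box gene, had weights of 0.106 to the bHLH gene and 0.109 to the GATA gene. *SvMads51*, a MADS-box gene of flowering time, had weights of 0.0817 to the bHLH gene and 0.0795 to the GATA gene. The weights of each MADS-box gene to the bHLH and GATA genes were thus close to each other.

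Outside magenta, a homolog of *milkweed pod1* (Sevir.6G158800), a KANADI gene of organ polarity in red, had weights of 0.0866 to the bHLH gene and 0.0879 to the GATA gene. *SvZcn2*, a TFL1-like gene that in related species delays flowering, lies in pink and had weights of 0.0716 to the bHLH gene and 0.0531 to the GATA gene. A homolog of *ROC5* (Sevir.5G077800), an epidermal homeobox gene in blue, had weights of 0.0412 to the bHLH gene and 0.0243 to the GATA gene. The genes linked to neither include *SvFul1*, *SvFul2*, *SvFul3*, *SvMads5*, *SvMads34*, *SvMads56*, *SvFtl1*, *SvKn1*, *SvRa2*, and *SvFea4*. An edge missing from this list does not bear on the regulatory link to *SvFul2* that the paper predicts for the bHLH gene.

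**Figure D4:**
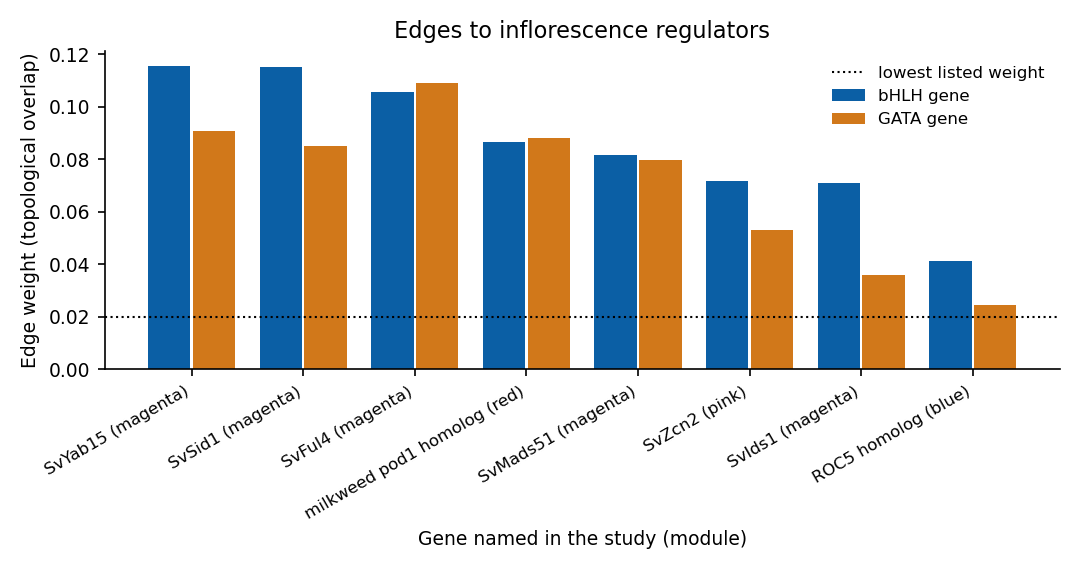
Edge weights of the bHLH gene and the GATA gene to the 8 genes named in the study that are linked to both, each with its module, and a dotted line at the lowest listed weight. *SvYab15* and *SvSid1* have weights of 0.115 to the bHLH gene, and *SvFul4* has the heaviest edge to the GATA gene (0.109).

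Among the 21 pairs formed by the bHLH gene, the GATA gene, *SvMads51*, *SvSid1*, *SvIds1*, *SvYab15*, and *SvFul4*, the bHLH and GATA pair had the second heaviest edge, after *SvMads51* and *SvSid1* (0.143). It had the largest share of common partners, 78.7% of the union against 26.02% to 73.0% for the other 20 pairs. It also had the highest correlation of weights over shared partners, with 0.928 against 0.129 to 0.738. The closest other pair by common partners was the bHLH gene with *SvYab15*. The bHLH and GATA pair was chosen for its heavy edge, and topological overlap counts common neighbours. Its first place by common partners and by correlation is therefore not independent of that choice and is a description only.

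The linked share was somewhat higher among relatives of the bHLH gene than over all network genes. Among the fewer relatives of the GATA gene it lay near the share over all network genes. Of 157 other network genes with a helix-loop-helix domain, 46 (29.3%) were linked to the bHLH gene and 35 (22.3%) to the GATA gene, and all of these 35 were linked to both. The shares over all network genes were 19.5% and 16.0%. The heaviest was Sevir.1G227600, in magenta, with 0.120 to the bHLH gene and 0.124 to the GATA gene, and next was Sevir.7G050200, in magenta, with 0.110 to the bHLH gene and 0.116 to the GATA gene. A run of neighbouring bHLH loci on chromosome 6, noticed after the values were seen, was divided over modules. In it, Sevir.6G239900 in magenta had 0.109 to the bHLH gene and 0.0987 to the GATA gene, and Sevir.6G240200 in midnightblue had 0.108 to the bHLH gene and 0.102 to the GATA gene. Sevir.6G240300, in black, had 0.0240 to the bHLH gene and no listed edge to the GATA gene. Near-identical copies could share reads in the authors' quantification, and this was not tested. Of 32 other network genes with a GATA zinc finger, 5 (15.6%) were linked to the bHLH gene and 4 (12.5%) to the GATA gene. The heaviest of them, Sevir.9G546700, had only 0.0410 to the bHLH gene and 0.0295 to the GATA gene.

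GO terms were counted in 19 lists over the 100 shared partners with the largest smaller-of-both weights, which ran between 0.0996 and 0.146. Of these 100 genes, 74 were in magenta and 19 in red, and every pair among them had a listed edge. Chlorophyll and photosynthesis terms were carried by 7 of the 100, against 3.25% of magenta genes and 1.89% of network genes. Over all 3959 shared partners the share was 3.79%, close to that of magenta. Besides the protochlorophyllide-linked Sevir.2G201200, they include Sevir.6G023500, in red (0.115 to the bHLH gene and 0.115 to the GATA gene), and Sevir.5G273300, a plastid ribosomal protein gene in red (0.111 to the bHLH gene and 0.115 to the GATA gene). Plastid ribosomal proteins serve in building the chloroplast. Of the 7 genes, 4 were in red and 1 was in magenta. Among the 98 partners of only the GATA gene, whose edges are weak and mostly in red, 9.18% carried chlorophyll and photosynthesis terms.

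Transcription factor terms were carried by 13 of the 100, against 12.0% of magenta genes and 11.4% of network genes. The 13 include Sevir.2G377000, a prenyltransferase gene, and leave out Sevir.1G227600, which has a helix-loop-helix domain. Flowering terms were carried by 5, against 5.95% of magenta genes and 4.34% of network genes. Neither share lies far from that of the module. The flowering genes include the bHLH gene Sevir.1G227600 and the MADS-box gene Sevir.1G003401 (0.117 to the bHLH gene and 0.115 to the GATA gene), and also the laccase Sevir.8G222407, which is not known as a flowering regulator. Meristem terms were carried by 2, Sevir.1G003401 and *SvFul4*, against 1.59% of magenta genes and 1.10% of network genes.

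Cytokinin terms were carried by 4 of the 100, against 1.11% of magenta genes and 1.11% of network genes. None of the 3 with an Arabidopsis best hit is known for cytokinin signalling. Sevir.5G321400 (0.124 to the bHLH gene and 0.113 to the GATA gene) and Sevir.9G563300 (0.112 to the bHLH gene and 0.112 to the GATA gene) encode plastid ribosomal proteins, and Sevir.2G055600 encodes a plastid ribose-5-phosphate isomerase. Jasmonic acid terms were carried by 4, against 4.60% of magenta genes and 2.51% of network genes. Abscisic acid terms were carried by 3, against 4.76% of magenta genes and 3.94% of network genes. Auxin, ethylene, gibberellin, and brassinosteroid terms were carried by 2 each. Their shares were 3.89%, 3.89%, 2.06%, and 1.03% of magenta genes and 2.74%, 1.98%, 1.08%, and 0.779% of network genes. Leaf and polarity, cell division, and stomata terms were carried by 1 each. Their shares were 2.86%, 1.11%, and 0.159% of magenta genes and 1.80%, 2.02%, and 0.0593% of network genes. Light terms, which the GATA gene itself carries, were found in 3, against 3.73% of magenta genes and 2.93% of network genes. Circadian rhythm, nitrogen, and sugar terms were found in none. Their shares were 0.635%, 2.78%, and 1.75% of magenta genes and 0.644%, 1.07%, and 1.32% of network genes. Of the 19 lists, 6 had a larger share in the 100 shared partners than in magenta. With 100 genes, a share of a few percent rests on a few genes, and these genes are not independent of each other.

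**Figure D5:**
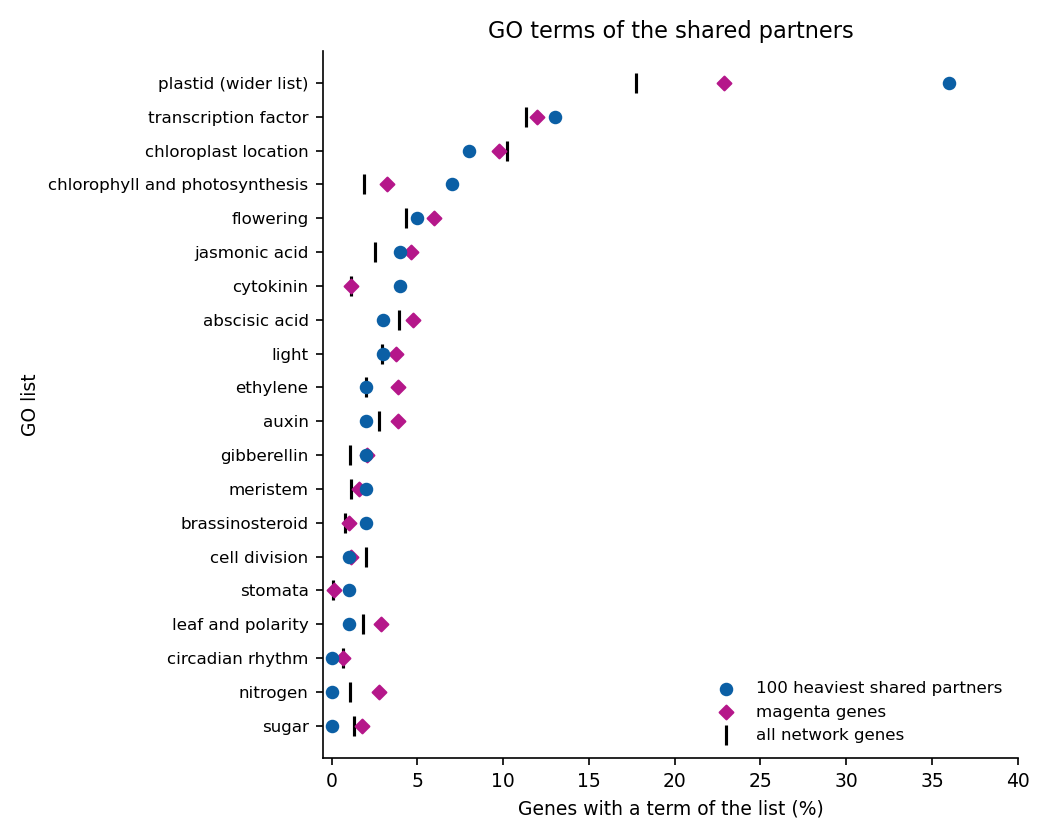
Share of genes with a term of each GO list among the 100 heaviest shared partners (circles), magenta genes (diamonds), and all network genes (ticks). Chlorophyll and photosynthesis terms reach 7% of the shared partners against 3.25% of magenta genes, and the wider plastid list reaches 36% against 22.9%. The wider plastid list was made after the partners were seen, unlike the other lists. The 100 shared partners are not all magenta genes. The wider list was carried by 20 of the 74 in magenta and by 11 of the 19 in red. Of the partners of only the GATA gene, which are not shown, 36.7% carried it.

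The chloroplast term alone was carried by 8 of the 100, against 9.76% of magenta genes and 10.2% of network genes. The annotation often gives a compartment of the plastid in place of the chloroplast itself. A wider list of plastid terms, made after the partners were seen, was carried by 36 of the 100, against 22.9% of magenta genes and 17.7% of network genes. It was carried by 20 of the 74 magenta genes and by 11 of the 19 red genes in this set. The wider list was carried by 28.2% of all shared partners. It was carried by 36.7% of the 98 partners of only the GATA gene, whose edges are weak and mostly in red. The wider list was thus not more common among the 100 heaviest shared partners than among these weak partners. In red, 34.6% of the shared partners carried it against 28.6% of all red genes, and in green, 21.5% of the shared partners against 15.9% of all green genes. The chloroplast term alone was below its share in magenta in the 100 heaviest shared partners but above it in the 200 heaviest (12%) and in all shared partners (13.6%). The direction for that term thus turned with the number of partners counted.

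The 11 process terms that the GATA gene carries were also counted over all network genes. Leaf morphogenesis was the term with the largest share of its genes linked to each gene. The bHLH gene was linked to 77 of the 244 other network genes with this term (31.6%), and the GATA gene to 74 (30.3%), above the shares of 19.5% and 16.0% over all genes. Among these partners, Sevir.6G023500, in red, had the largest smaller-of-both weight and is also counted above under chlorophyll and photosynthesis terms. The term alone does not show that a linked gene acts in leaf form. Of the 21 other genes with regulation of chlorophyll biosynthesis, 5 were linked to the bHLH gene and 4 to the GATA gene. Of the 203 with response to light stimulus, 51 (25.1%) were linked to the bHLH gene and 43 (21.2%) to the GATA gene. Circadian rhythm lay below the shares over all genes, with 24 of 162 genes (14.8%) linked to the bHLH gene and 22 (13.6%) to the GATA gene. Transcription by RNA polymerase II also lay below them, with 87 of 653 genes (13.3%) linked to the bHLH gene and 62 (9.49%) to the GATA gene.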

How the data were processed

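A network built from wild-type primordia was read from the deposited edge and node lists, and gene functions were read from a deposited GO table. The authors estimated transcript abundance with Salmon 0.13.0, applied a variance stabilizing transformation, removed 2 wild-type samples, added samples of an earlier study, and built a signed network with WGCNA. The deposited edge weight is a score made by the authors, the topological overlap. Module colours and GO terms (GOMAP pipeline) are labels of the authors. The edge list holds 43548751 pairs from 0.02 to 0.393. The node list holds 25298 genes in 26 modules, which is fewer genes and modules than the paper reports for its network. Shares of network and module genes refer to the listed genes. No column belongs to a single sample, so that depth per sample, replicate error, and tests were not used, and RNA-seq of *ful2* samples was not analysed here.

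Edges were counted and summed per gene, and partners were ranked by weight. GO terms were used as assigned, and 678 assignments marked NOT were left out. Genes were named from the domain evidence and Arabidopsis best hits in the GO table, which list a domain only where it is the source of a term, and from the study's annotation. Named genes were the 15 heaviest partners of each gene, the 10 heaviest shared partners, genes named by the study, up to 5 family members, and up to 3 genes for each of 19 GO lists. Others were chosen after their values were seen. The members and lists were chosen with earlier results of these data known. Alternatives were other measures of connectivity, a higher minimum weight, magenta partners alone, other numbers of shared partners, and, added after seeing the data, wider plastid terms. The network functions were tested on simulated data. None of the network loci was found in the RefSeq table, so no sequence is shown. Software versions were pandas 2.3.3, numpy 2.4.6, and scipy 1.17.1 for tables, and matplotlib 3.10.9 for plots, under Python 3.11.15.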

Additional observations from a re-analysis of the deposited data

How the results depend on the processing

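The magenta rank of the bHLH gene was 85 by summed weight, 22 by the number of magenta edges, and 250 by the sum over all modules. That of the GATA gene was 200 by summed weight and 388 by the sum over all modules. With magenta edges alone, 97.3% of the edges of the bHLH gene and 98.4% of those of the GATA gene were lighter than the pair's edge. After division by connectivity, 90.5% of magenta edges were lighter. With edges of at least 0.04, the share of the bHLH gene's partners shared with the GATA gene was 71.2%, and the correlation of weights was 0.867. With magenta partners only, the shared part was 94.9% of the bHLH gene's and 99.9% of the GATA gene's partners. Among the GO shares, 3 fell to 0 in the top 50 (ethylene, stomata, and cell division), and the share of plastid genes among the 100 was 36% with the wider list, against 8% with the chloroplast term. The other 73 alternative GO values lay within the 95% interval around the share in the 100. This interval treats the genes as independent, which they are not, and the alternative sets overlap the 100. It is also wide, so that lying within it does not show a share to be stable. The chloroplast term, for example, went from 8% to 13.6% over all shared partners within it. No paired analysis was possible because each edge weight is a single value over the network's wild-type libraries. For the same reason no replicate could be left out. The promoter motifs and protein features that had been planned were not analysed here. Sequencing depth was not used, and a pair missing from the list has an unknown weight.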

Other observations

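Further groups of partners, chosen after their values were seen, are given as values. Of 51 other network genes annotated with negative regulation of flower development, a term of the GATA gene itself, 10 (19.6%) were linked to the bHLH gene and 9 (17.6%) to the GATA gene, close to the 19.5% and 16.0% of all network genes. The heaviest in this group were Sevir.8G033800, of the phosphatidylethanolamine-binding protein family that includes TFL1 (0.0949 to the bHLH gene and 0.103 to the GATA gene), Sevir.5G095000, with a B3 DNA-binding domain (0.1003 to the bHLH gene and 0.0904 to the GATA gene), and Sevir.1G335300, whose best hit is the Arabidopsis flowering repressor SVP (0.0928 to the bHLH gene and 0.0892 to the GATA gene).

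Of 21 other network genes annotated with vitamin E biosynthesis, 8 (38.1%) were linked to the bHLH gene and 6 (28.6%) to the GATA gene, against 19.5% and 16.0% of all network genes. Besides the tocopherol cyclase homolog Sevir.1G122600, these include the homolog of tocopherol methyltransferase VTE4, Sevir.1G292300 (0.118 to the bHLH gene and 0.112 to the GATA gene), and a prenyltransferase gene in red, Sevir.2G377000 (0.107 to the bHLH gene and 0.103 to the GATA gene). Not all were heavy. Sevir.4G200500, in pink, has the same prenyltransferase domain and had only 0.0329 to the bHLH gene and 0.0215 to the GATA gene. Of 27 other network genes with plastid translation or plastid ribosome terms, 17 (63.0%) were linked to the bHLH gene and 16 (59.3%) to the GATA gene, against the same 19.5% and 16.0%. Of the 27, 13 lie in red, where 34.8% of all genes were linked to the bHLH gene and 35.8% to the GATA gene. Of these 13, 10 (76.9%) were linked to the bHLH gene and 11 (84.6%) to the GATA gene. These terms do not cover all plastid ribosomal protein genes, since some among the 100 heaviest shared partners do not carry them.

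Of the 10 network loci nearest to each gene, 5 on either side, the bHLH gene was linked to 4 (40%, against 19.5% of all network genes), the heaviest being Sevir.2G249600 (0.0677). The GATA gene was linked to 1 (10%, against 16.0%), Sevir.4G247600 (0.0368).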
